A study of Mus musculus and Mus musculus x Mus spretus with 14 samples.

Results

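The X-linked cluster of miR-322, miR-503, miR-351, miR-542 and miR-450 was described across 13 mouse skin cell lines through its 9 probes, mmu-miR-322, mmu-miR-503, mmu-miR-351, mmu-miR-542-3p, mmu-miR-542-5p, mmu-miR-450a-5p, mmu-miR-450a-3p, mmu-miR-450b-5p and mmu-miR-450b-3p. A probe was taken as a member where a slash-separated part of its identifier equalled one of these names, which gave 9 of 1271 probes, or 9 of the 576 probes that name a mouse miRNA. The cluster was chosen by the genomic position of its genes and with the level of miR-322 in spindle lines already known, so differences that involve spindle lines are given as descriptions and without a test. The study profiled microRNAs in cell lines of mouse skin carcinogenesis on Exiqon arrays, labelled with the dye Cy3, and its title places it in work on miRNA patterns and prognosis of cutaneous squamous cell carcinoma. Each line was hybridised to 1 array, except A5, which had 2 arrays that were averaged.

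The 5 malignant spindle lines were A5 and D3, from a tumour of a Mus spretus x CBA F1 hybrid treated repeatedly with the carcinogen DMBA, CARB and CARC, from NIH/Swiss mice given DMBA and the promoter TPA, and H11, a single-cell clone of SN161. SN161 came from a lymph node metastasis in a 129/NIH F1 mouse. The 3 malignant squamous lines were B9, from the same tumour as A5 and D3, E4, a clone of the same tumour as H11, and PDVC57, from a tumour that grew in C57Bl mice from injected PDV cells, which are C57Bl keratinocytes transformed with DMBA in culture. The 5 non-malignant squamous lines were the papilloma lines MSCP1 and P6, from Mus spretus x CBA mice given DMBA and TPA, and 3 lines of immortalized keratinocytes, C5N, C50 and NK. C5N is a clone of MCA3D keratinocytes from a BALB/c mouse, C50 is an immortalized keratinocyte line, and NK immortalized spontaneously from a p53 null mouse. All were grown in the same serum-containing medium, and total RNA was extracted with the miRNA kit of Qiagen. Each line is a culture with its own history, lines of the same tumour are not independent, and an array of bulk RNA cannot tell fewer expressing cells from less RNA per cell.

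The cluster lies on the X chromosome, and its hairpins are held to be cut from a shared primary transcript, so that its miRNAs are often described as made together. miR-322, the mouse counterpart of human miR-424, and miR-503 begin with nearly the same bases as miR-15 and miR-16, and repress cell-cycle genes such as those for cyclin D1, cyclin E1 and Cdc25a. They are known for withdrawal from the cell cycle during muscle differentiation. miR-351 carries the seed of the miR-125 family, and miR-542-3p is known in human cells for repressing the survivin gene.

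The mature sequences, from RefSeq on GRCm38.p6, are shown because the seed, the bases 2 to 8 that pair with target messages and are given here in capitals, divides the members into groups that do not follow their shared position. The first 3 members come from the upstream end of the cluster.
mmu-miR-322: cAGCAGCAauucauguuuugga
mmu-miR-503: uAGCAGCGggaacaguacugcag
mmu-miR-351: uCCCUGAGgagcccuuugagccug
mmu-miR-542-3p: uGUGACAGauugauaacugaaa
mmu-miR-542-5p: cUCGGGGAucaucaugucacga
mmu-miR-450a-5p: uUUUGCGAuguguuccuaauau
mmu-miR-450a-1-3p: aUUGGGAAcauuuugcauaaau
mmu-miR-450a-2-3p: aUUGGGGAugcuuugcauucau
mmu-miR-450b-5p: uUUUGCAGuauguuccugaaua
mmu-miR-450b-3p: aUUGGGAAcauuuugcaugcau
The passenger strand of the miR-503 hairpin is added because its probe was above background in every line, and mmu-miR-16 and mmu-miR-125b-5p because they stand for the larger seed families.
mmu-miR-503*: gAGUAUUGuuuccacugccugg
mmu-miR-16: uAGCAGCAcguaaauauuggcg
mmu-miR-125b-5p: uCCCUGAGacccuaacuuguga
The seed of miR-322 was shared by 10 mature mouse miRNAs in RefSeq, among them miR-15a, miR-15b, miR-16, miR-195a and miR-497a. The seed of miR-503 was its own, but its bases 2 to 7 were those of the miR-322 family, so that 6 of the 7 seed bases of miR-322 and miR-503 were identical. Over the 22 bases that could be aligned from the 5′ end, these 2 members had 11 bases in common. The seed of miR-351 was shared by 5 mature miRNAs, including miR-125a-5p and miR-125b-5p. The array name mmu-miR-450a-3p does not say which of the 2 miR-450a hairpins it stands for, so both products are printed. One of them has the seed of miR-450b-3p and the other does not, while miR-450a-5p is the same from both hairpins.

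On GRCm38.p6 the 7 hairpins occupied chrX:53047997-53054349 on the minus strand, a span of 6353 bases. In the direction of transcription, Mir322 came first and Mir503 started 295 bases after it, followed by Mir351 at 996 bases. Mir542 started at 4862 bases, and Mir450-2, Mir450-1 and Mir450b at 5982, 6105 and 6271 bases. The annotated gene C430049B03Rik overlapped the span. The mature miR-322 lay at chrX:53054306-53054327, miR-503 at chrX:53054027-53054049, miR-351 at chrX:53053315-53053338 and miR-542-3p at chrX:53049415-53049436.

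The values are the deposited log2 signals, and levels and differences below are on that scale. A probe was counted as above background in a line where it exceeded the median of the array's 8 negative control probes by more than 1 log2 unit, which put the threshold between 7.50 and 7.67. MSCP1 had 37 of 576 mouse probes above background, against 119 to 185 in the other lines, and the mean level over the 188 mouse probes above background in at least 3 lines was 7.37 on MSCP1 and 7.75 on C5N, the 2 lowest, and 9.03 on B9, the highest. A5 did not stand apart on these measures, with 134 mouse probes above background and a mean level of 8.52. It was, however, the highest line for miR-503 and miR-542-3p. Some values that rest on C5N, MSCP1 and A5 are also given without these 3 lines. The control U6-snRNA-2 averaged 13.03 ± 0.98 in spindle (SD, n = 5), 13.81 ± 1.09 in malignant squamous (n = 3) and 11.78 ± 1.33 in non-malignant squamous lines (n = 5). Of 6 epithelial marker miRNAs (the miR-200 family and miR-205), 0 were above background in any spindle line, 5 in some malignant squamous line and 6 in some non-malignant line. Of 5 mesenchymal marker miRNAs, 5 were above background in some spindle line, 1 in some malignant squamous line and 1 in some non-malignant line. Only 1 of them, miR-214, was above it in every spindle line, and also in all 3 malignant squamous and 4 of 5 non-malignant lines. miR-143, miR-145 and miR-199a-3p were above background in 3 spindle lines each and miR-199a-5p in 2.

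The cluster was detected unevenly along its length. Of the 9 members, 4 were above background in at least 3 lines, namely miR-503 and miR-351 in 10 lines each, miR-542-3p in 9 and miR-322 in 3, against 188 of 576 mouse probes (32.6%). miR-450a-5p was above background in 2 lines, miR-450a-3p and miR-450b-3p in 1 line each, and miR-542-5p and miR-450b-5p in 0 of 13 lines. By line, 5 members were above background in D3 and in CARB, 4 in CARC and 3 in each of A5, H11, B9, PDVC57, P6 and C50. E4 had 2, C5N and NK had 1 each, and MSCP1 had 0.

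**Figure D1:**
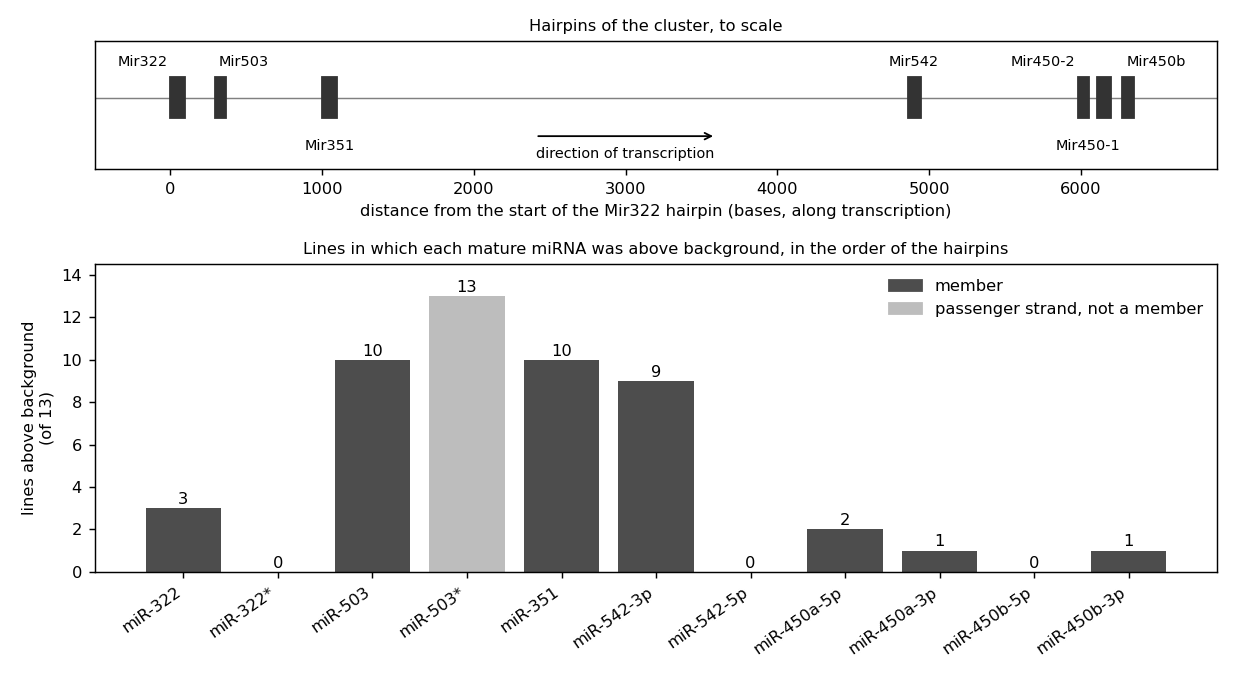
Upper panel: the 7 hairpins drawn to scale against the distance in bases from the start of Mir322, along the direction of transcription. Lower panel: the number of the 13 lines in which each mature miRNA was above background, for members (dark) and passenger strands (light); the miR-450a arms are drawn once although the array name does not tell their 2 hairpins apart, and the counts run from 0 for miR-542-5p and miR-450b-5p to 13 for miR-503*.

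mmu-miR-322, the mouse counterpart of miR-424, was higher in 4 of the 5 spindle lines than in every squamous line. Its level was 7.72 in D3, 7.56 in CARB, 7.78 in CARC, 7.82 in H11 and 6.79 in A5. It was 6.69 in B9, 6.58 in E4 and 6.85 in PDVC57, and among the non-malignant lines 6.85 in MSCP1, 7.19 in P6, 7.18 in C5N, 7.03 in C50 and 6.90 in NK. The spindle and squamous groups overlapped through A5 alone, which lay below all 5 non-malignant lines and between B9 and PDVC57. Group means were 7.53 ± 0.43 in spindle (SD, n = 5), 6.71 ± 0.13 in malignant squamous (n = 3) and 7.03 ± 0.16 in non-malignant squamous lines (n = 5). D3, CARC and H11 were above background, while A5, CARB and all 8 squamous lines were not. The group differences given for miR-322 thus set spindle lines partly at background against lines at background. They may understate the change in the miRNA. Close to the threshold, CARB lay 0.10 below it and D3 0.12 above it.

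mmu-miR-503, which also targets cyclin genes, was above background in all 5 spindle lines, 2 of 3 malignant squamous lines and 3 of 5 non-malignant lines. Its level was 9.64 in A5, 8.75 in D3, 7.81 in CARB, 8.05 in CARC and 8.27 in H11. It was 8.40 in B9, 7.23 in E4 and 7.92 in PDVC57, and 7.48 in MSCP1, 8.29 in P6, 8.04 in C5N, 7.95 in C50 and 7.54 in NK. A5 was the highest line and E4 the lowest, and the groups overlapped widely: B9 and P6 lay above CARB, CARC and H11. Group means were 8.50 ± 0.72 in spindle (SD, n = 5), 7.85 ± 0.59 in malignant squamous (n = 3) and 7.86 ± 0.34 in non-malignant lines (n = 5). Its passenger strand, miR-503*, was above background in all 13 lines, with 10.10 in A5, 10.04 in D3, 9.02 in CARB, 9.36 in CARC and 9.49 in H11. It was 9.76 in B9, 9.01 in E4 and 9.53 in PDVC57, and 7.69 in MSCP1, 9.10 in P6, 8.02 in C5N, 9.32 in C50 and 9.39 in NK. The lowest 2 lines of miR-503* were MSCP1 and C5N, the 2 arrays with the lowest mean level. The probe of the other passenger strand, miR-322*, was above background in 0 lines, with levels of 6.25 to 7.30.

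mmu-miR-351, which carries the miR-125 seed, varied least among the 3 members detected most often. It read 8.25 in A5, 8.44 in D3, 7.93 in CARB, 8.45 in CARC and 8.04 in H11. It read 8.16 in B9, 7.46 in E4 and 8.24 in PDVC57, and 7.29 in MSCP1, 8.25 in P6, 7.30 in C5N, 8.09 in C50 and 8.05 in NK. The 3 lines below background were E4, C5N and MSCP1, and the other 10 lay within 7.93 to 8.45, with the groups overlapping. E4 lay 0.04 below the threshold. Group means were 8.22 ± 0.24 in spindle (SD, n = 5), 7.96 ± 0.43 in malignant squamous (n = 3) and 7.80 ± 0.46 in non-malignant lines (n = 5).

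mmu-miR-542-3p, for which survivin is a known target in human cells, was dominated by A5. Its level was 10.07 in A5, 8.01 in D3, 7.90 in CARB, 8.21 in CARC and 7.54 in H11. It was 7.83 in B9, 8.08 in E4 and 8.22 in PDVC57, and 7.14 in MSCP1, 7.93 in P6, 6.58 in C5N, 7.74 in C50 and 7.31 in NK. All 3 malignant squamous lines and 4 of 5 spindle lines were above background, against 2 of 5 non-malignant lines (P6 and C50). Group means were 8.34 ± 0.99 in spindle (SD, n = 5), 8.04 ± 0.20 in malignant squamous (n = 3) and 7.34 ± 0.53 in non-malignant lines (n = 5). The other arm of this hairpin, mmu-miR-542-5p, lay between 6.35 and 6.90 in all 13 lines and was above background in none of them.

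The 2 arrays of A5 gave the same picture of this line, in which miR-503 and miR-542-3p were highest and miR-322 was among the lowest 3. miR-542-3p read 10.14 and 9.99 on them, miR-503 9.69 and 9.58, and miR-322 6.75 and 6.83. Over the 9 members the arrays differed by 0.05 to 0.26, against a median absolute difference of 0.11 over all 576 mouse probes.

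The miR-450 members at the downstream end were mostly at background. mmu-miR-450a-5p was 7.29 in A5, 8.04 in D3, 7.75 in CARB, 6.99 in CARC and 6.96 in H11. It was 6.89 in B9, 6.61 in E4 and 6.89 in PDVC57, and 6.72 in MSCP1, 7.02 in P6, 6.90 in C5N, 6.83 in C50 and 6.81 in NK. Each spindle line lay above each malignant squamous line, but H11 and B9 were close and both at background. The probe of miR-322*, above background in 0 lines, separated these groups too. Only D3 and CARB were above background for miR-450a-5p, and P6 lay above CARC and H11. mmu-miR-450b-3p was above background in CARB alone, at 7.82, and lay between 6.46 and 6.72 in the other 12 lines. mmu-miR-450a-3p was above background in E4 alone, at 7.64, with 7.22 in A5 and 6.43 to 6.94 in the rest. Thus 1 of the 2 3′ arms was just above background in a spindle line and the other in a squamous line. In sequence, miR-450b-3p is identical at 20 of 22 bases to the product of the Mir450-1 hairpin, printed above. It is identical at 17 of 22 bases to that of Mir450-2, and the array name does not tell these products apart. mmu-miR-450b-5p lay between 6.52 and 6.86 everywhere.

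**Figure D2:**
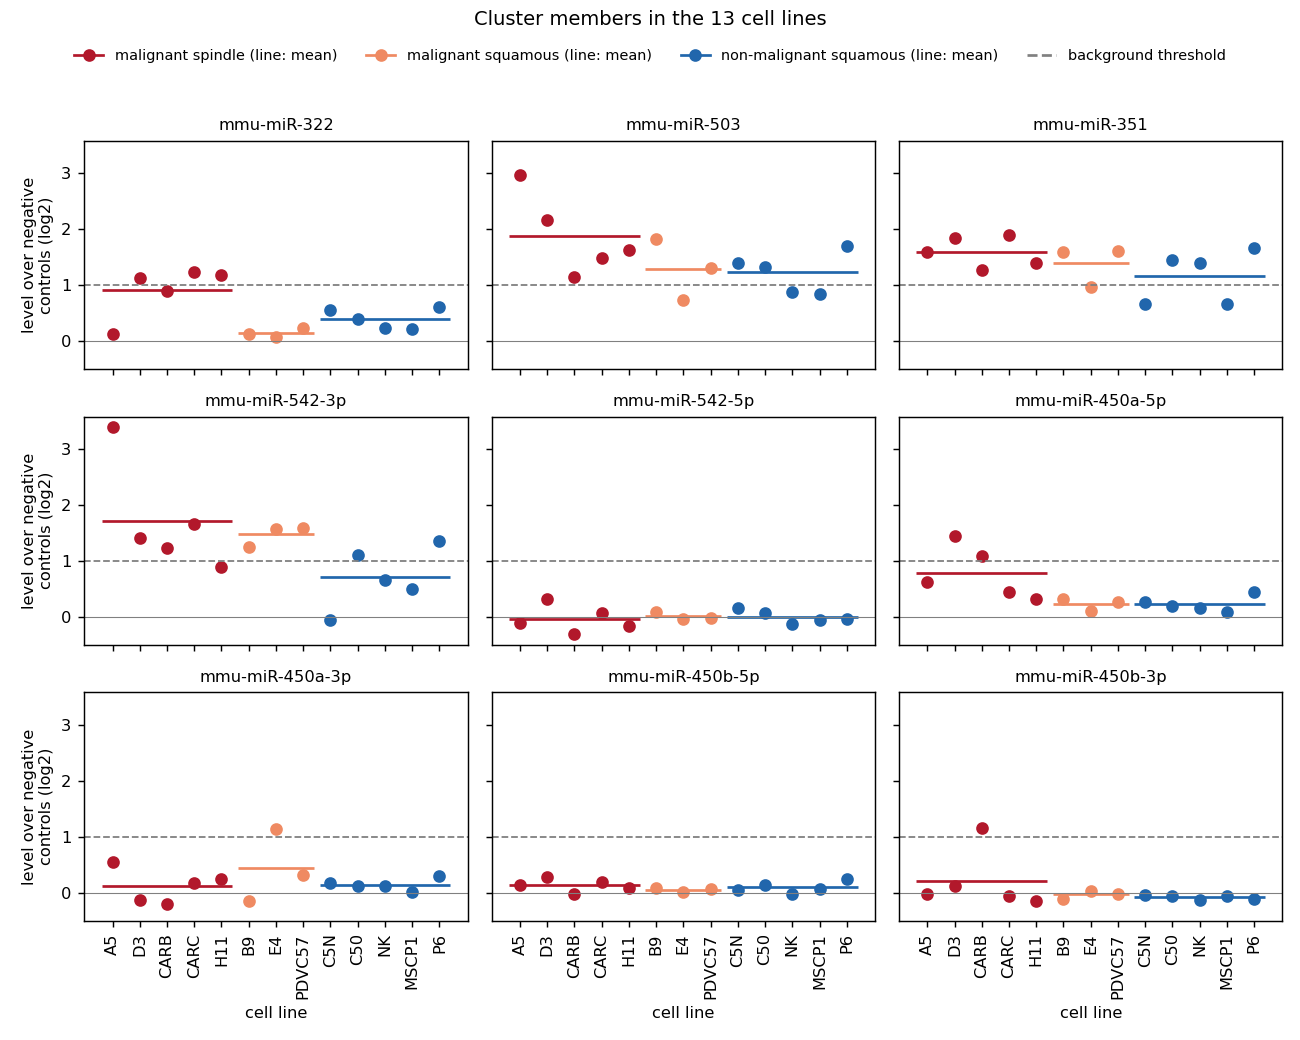
Level of each member over the median of the 8 negative controls of the same array (log2, vertical axis) in each of the 13 lines (horizontal axis), coloured by malignant spindle, malignant squamous and non-malignant squamous; horizontal bars are group means and the dashed line is the background threshold of 1. miR-503, miR-351 and miR-542-3p exceeded the threshold in 9 or 10 lines, miR-322 in 3 spindle lines, and A5 was highest for miR-503 and miR-542-3p but low for miR-322.

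Set against malignant squamous lines, spindle lines were higher for 8 of 9 members, with a median difference of 0.30 over members against -0.01 over all 576 mouse probes and -0.15 over the 188 detected ones. The 8 include miR-542-5p and miR-450b-5p, which were above background in 0 lines and differed by 0.01 and 0.13, and miR-450b-3p, which was above it in CARB alone. The difference was 0.83 ± 0.23 for miR-322 (SE from limma), 0.65 ± 0.44 for miR-503, 0.61 ± 0.23 for miR-450a-5p, 0.30 ± 0.50 for miR-542-3p and 0.27 ± 0.34 for miR-351. For miR-322 and miR-450a-5p, 4 and 5 of the 5 spindle lines lay above the highest malignant squamous line. Of these lines, only D3 and CARB were above background for miR-450a-5p. In this comparison limma called 0 of 576 mouse probes (0%) at an adjusted p under 0.05. Without A5 the value of miR-542-3p turned to -0.13. Without E4 the value of miR-503 was 0.34 and that of miR-351 was 0.02.

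Set against non-malignant squamous lines, spindle lines were higher for 7 of 9 members, with a median of 0.43 against 0.03 over all mouse probes and 0.35 over the detected ones, so the members' median was close to that of detected probes in general. The difference was 0.50 ± 0.20 for miR-322, 0.55 ± 0.20 for miR-450a-5p, 1.01 ± 0.43 for miR-542-3p, 0.64 ± 0.38 for miR-503 and 0.43 ± 0.30 for miR-351. Without C5N, MSCP1 and A5 it was 0.26 for miR-542-3p, 0.29 for miR-503 and 0.08 for miR-351, while it was 0.68 for miR-322 and 0.54 for miR-450a-5p. The difference of miR-450b-3p rested on CARB: it was 0.29 ± 0.20 with that line and 0.04 without it. These 2 sets of differences share the 5 spindle lines. In these comparisons and in that of spindle with all 8 squamous lines, limma called 0 of 576 mouse probes at an adjusted p under 0.05 (0%), and 49, 17 and 28 probes had an unadjusted p under 0.05 against non-malignant, malignant and all squamous lines. The mean of the 5 mesenchymal markers was 7.98 ± 0.79 in spindle (SD, n = 5), 6.94 ± 0.07 in malignant squamous (n = 3) and 6.93 ± 0.09 in non-malignant lines (n = 5), and the mean of the 6 epithelial markers was 6.77 ± 0.11, 8.29 ± 0.94 and 9.00 ± 1.45 in the same groups. Among spindle lines the mesenchymal mean was 8.84 in CARB and 8.83 in CARC, against 7.22 in A5, 7.54 in D3 and 7.48 in H11. The part of these markers and of the U6 level in the differences of the members was not tested.

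**Figure D3:**
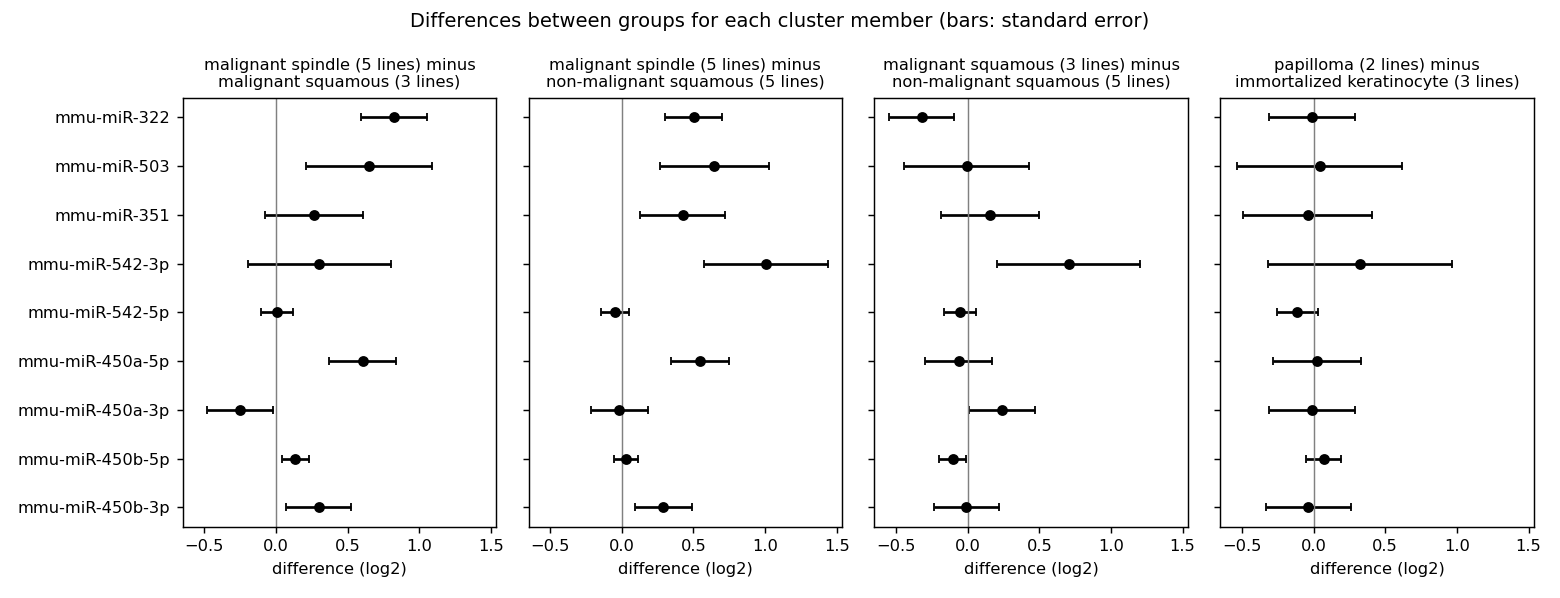
Difference between groups for each member (log2, horizontal axis; points are differences of group means and bars are 1 standard error from limma) in 4 comparisons. The 2 spindle comparisons are descriptions without a test, since the level of miR-322 in spindle lines was known when the cluster was chosen. In the other 2 comparisons no member had a limma adjusted p under 0.05.

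The squamous lines without spindle morphology allow comparisons apart from the spindle level of miR-322 that was known when the cluster was chosen. Earlier results of these data were known too, so these comparisons may not be free of selection. Between malignant and non-malignant squamous lines, no member changed by the test. miR-542-3p differed by 0.70 ± 0.50 (SE), with a limma adjusted p of 0.844 over 576 probes, and was higher than the non-malignant mean in 3 of 3 malignant lines. Without C5N, MSCP1 and A5 its difference was 0.38. miR-322 differed by -0.32 ± 0.23 with a limma adjusted p of 0.844, and all 8 lines were at background. The 3 malignant lines lay below the lowest non-malignant line, but PDVC57 at 6.850 was almost level with MSCP1 at 6.854. miR-351 differed by 0.16 ± 0.34 and miR-503 by -0.01 ± 0.44, with adjusted p of 0.932 and 0.996 from limma. The approximate interval of the miR-503 difference, about 2 standard errors on either side, ran from -0.87 to 0.85, so changes in either direction below that size could not be seen with these lines. limma called 0 of 576 mouse probes (0%) at an adjusted p under 0.05; at an unadjusted p under 0.05 it called 26 (4.51%), of which 0 were members.

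Between papilloma and immortalized keratinocyte lines, all 9 members had an adjusted p of 0.999 in limma. The widest difference was that of miR-542-3p, 0.32 ± 0.64 (SE), and the other 8 members lay between -0.12 and 0.07. The papilloma lines themselves were apart, with P6 above MSCP1 for miR-503, miR-351 and miR-542-3p. limma again called 0 of 576 probes (0%), and 14 probes (2.43%) had an unadjusted p under 0.05, of which 0 were members.

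Spindle and squamous lines derived from the same tumour gave 3 pairs in which the genetic background was shared. In D3 against B9, miR-450a-5p differed by 1.14 and miR-322 by 1.03, while miR-503 differed by 0.36, miR-351 by 0.28 and miR-542-3p by 0.18. The median absolute difference of detected probes in this pair was 0.32, so the first 2 members lay well above it and the others near or below it. In H11 against E4, miR-322 differed by 1.23, miR-503 by 1.04, miR-351 by 0.57 and miR-542-3p by -0.54, with a median absolute difference of 0.47 over detected probes. In A5 against B9, miR-542-3p differed by 2.24, miR-503 by 1.24 and miR-322 by 0.10, with a median absolute difference of 0.93. The direction for miR-503 in this last pair depended on the probe, since hsa-miR-503 differed by -1.01. miR-450a-5p differed by 0.35 in H11 against E4 and by 0.39 in A5 against B9, below the median absolute difference of each pair. miR-322 and miR-450a-5p were at background in B9 and E4. Both were above background in D3, and miR-322 also in H11, so those differences set signal above the threshold against background. For miR-322 this depends on the threshold, as it lay 1.12 in D3 and 1.17 in H11 over the negative controls. At another threshold, given at the end, miR-322 passed in no line. On the mouse probes both were at background in A5, as was miR-450a-5p in H11, so those differences lie within background. On the rat probe rno-miR-450a, however, A5 was above background at 7.89 and differed from B9 by 0.97. A5 and D3 share B9 as their partner, and each pair is 1 line against 1 line with no replicate check.

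Members of the cluster moved together only in part. Over the 13 lines, the 6 pairs among the 4 members above background in at least 3 lines had a median Pearson r of 0.46, and all 36 pairs a median of 0.25. For miR-503 and miR-351, r was 0.56 (Spearman rho 0.70), 0.55 without the 2 lines farthest in miR-503 and 0.77 without C5N, MSCP1 and A5. For miR-503 and miR-542-3p, r was 0.67 but rho was 0.32, and r was 0.37 without the 2 farthest lines and 0.17 without A5, so this relation rested on A5. For miR-351 and miR-542-3p, r was 0.55 (rho 0.70), and 0.21 without MSCP1 and C5N, the lines on which it rested. miR-322, whose hairpin lies next to that of miR-503, had an r of 0.17 with it (rho 0.25), 0.19 without the 2 farthest lines and 0.55 without A5. With miR-542-3p the r of miR-322 was -0.14 (rho -0.18). Its r with miR-450a-5p was 0.57 (rho 0.58), although 1 line, D3, had both of these miRNAs above background. Correlations were also taken with the mean of each phenotype group subtracted. The r of miR-322 was then 0.09 with miR-450a-5p, 0.15 with miR-351, -0.43 with miR-503 and -0.75 with miR-542-3p. For miR-503 it was 0.43 with miR-351 and 0.62 with miR-542-3p, and for miR-351 with miR-542-3p 0.39. Under quantile normalization instead, these last 3 pairs had an r of 0.40, 0.42 and 0.44.

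**Figure D4:**
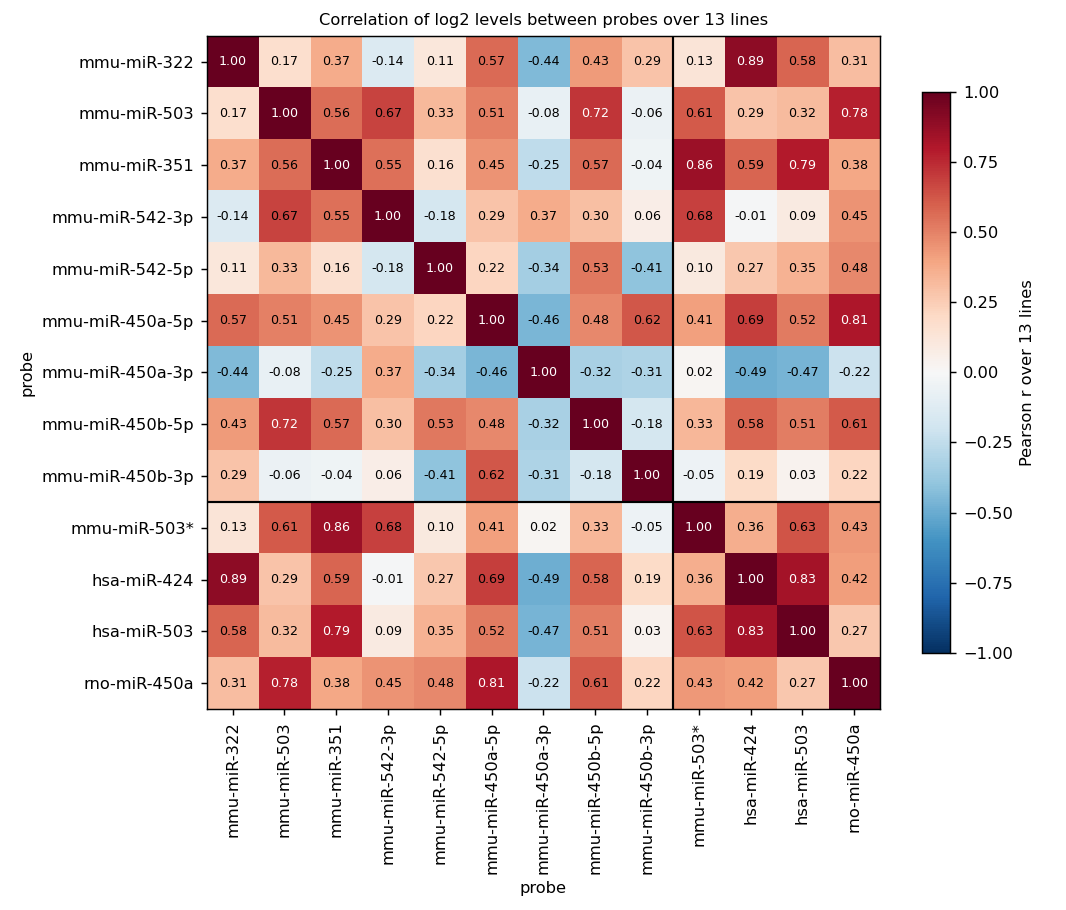
Pearson r of log2 levels over 13 lines for each pair among the 9 members (upper left block) and with the miR-503 passenger strand and probes of other species (last 4 rows and columns); red is positive and blue negative. The r of miR-322 was 0.89 with hsa-miR-424 and 0.17 with miR-503, and miR-450a-3p had mostly negative values.

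The lines share more than the cluster: each point is an array of its own brightness, and several lines come from the same tumour. The r with the mean level of detected probes was 0.78 for miR-351 and 0.90 for miR-503*, 0.40 for miR-503, 0.39 for miR-542-3p and 0.05 for miR-322. Without C5N, MSCP1 and A5 these values were 0.41 for miR-351, 0.81 for miR-503*, 0.64 for miR-503, -0.17 for miR-542-3p and -0.22 for miR-322. Of these probes, miR-503* had the highest r with the brightness of the array in both sets of lines, and the r of 0.86 between miR-351 and miR-503* was 0.61 without C5N, MSCP1 and A5. Among the 184 detected mouse probes that are not members, which include miR-503*, 30 had a higher r with miR-503 than miR-542-3p had, 51 a higher r than miR-351 and 104 a higher r than miR-322. For miR-322, 14 of these probes had a higher r with it than miR-351 had, 52 a higher r than miR-503 and 140 a higher r than miR-542-3p. From the other side, 122 probes had a higher r with miR-351 than miR-322 had, and 153 a higher r with miR-542-3p.

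Probes designed for other species, which can bind the mouse miRNA where the sequences allow, read the same lines a second time. hsa-miR-424, the human counterpart of miR-322, followed mmu-miR-322 with an r of 0.89 (rho 0.86, n = 13 lines) and 0.88 without the 2 farthest lines. It was 6.98 in A5, 8.66 in D3, 7.80 in CARB, 8.01 in CARC and 8.11 in H11. It was 7.21 in B9, 6.81 in E4 and 7.23 in PDVC57, and 6.99 in MSCP1, 7.84 in P6, 7.11 in C5N, 7.40 in C50 and 7.05 in NK. On this probe A5 was again low, the other 4 spindle lines were above background, and P6 was the 1 squamous line above background, at a level above CARB. The 2 probes for miR-503 disagreed on A5: it was the highest line on mmu-miR-503, at 9.64, and read 7.68 on hsa-miR-503, where D3 was highest at 9.37. The r between these probes was 0.32 with all 13 lines (rho 0.63), 0.84 without A5 and 0.96 without C5N, MSCP1 and A5. The high miR-503 of A5 was therefore seen on 1 of the 2 probes and on both A5 arrays, where hsa-miR-503 read 7.70 and 7.66. On the human pair of probes, hsa-miR-424 and hsa-miR-503 had an r of 0.83 (rho 0.84, 0.76 without the 2 farthest lines), against 0.17 on the mouse pair. The high miR-450b-3p of CARB was not seen on hsa-miR-450b-3p, which was above background in 0 lines and read 6.97 in CARB. rno-miR-450a followed mmu-miR-450a-5p with an r of 0.81 (rho 0.85) and was above background in A5, at 7.89, and D3, at 8.15. CARB, which was above background on mmu-miR-450a-5p, was not above it on this probe.

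**Figure D5:**
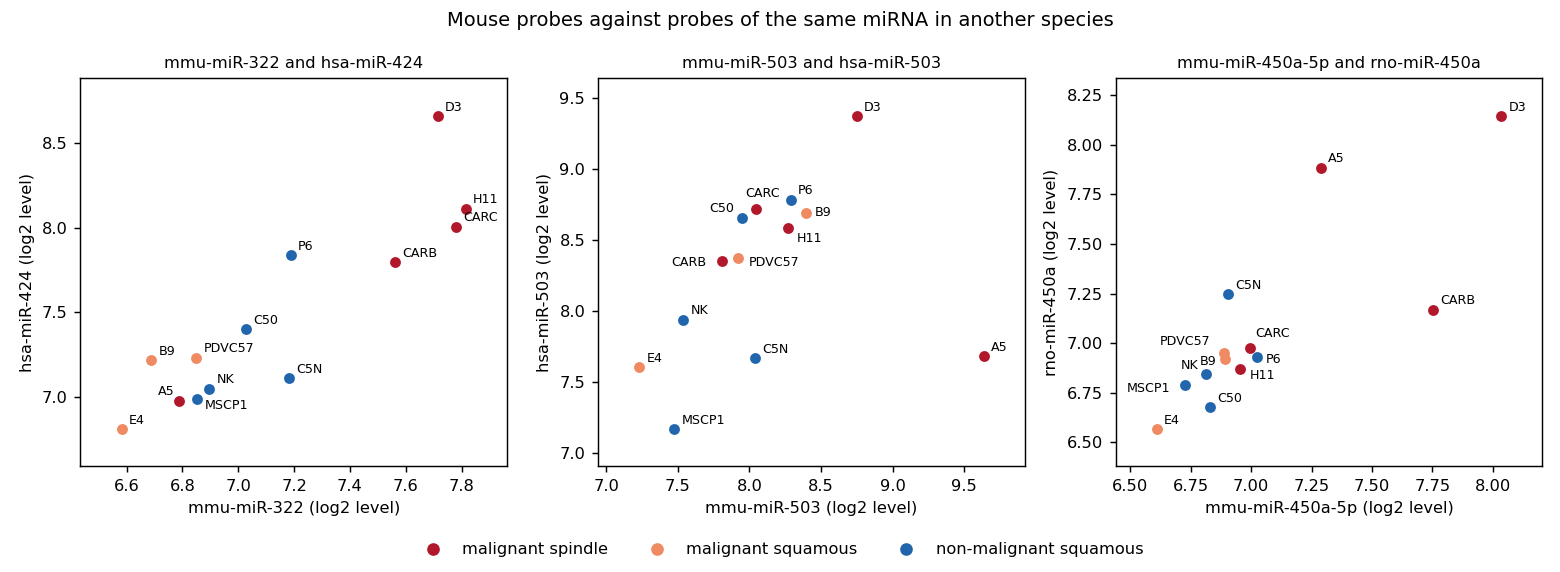
Log2 level of a mouse probe (horizontal axis) against the probe of the same miRNA in human or rat (vertical axis) for each of the 13 lines, coloured by malignant spindle, malignant squamous and non-malignant squamous. For miR-322 the points rise together (r of 0.89), and for miR-503 A5 lies far to the right, at 9.64 on the mouse probe and 7.68 on the human probe.

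By Pearson r over the 13 lines, the 5 detected mouse probes most like miR-322 were miR-143 (0.78), miR-145 (0.75), miR-199a-3p (0.74), miR-9 (0.68) and miR-98 (0.68). The first 3 of these belong to the mesenchymal marker list, and their highest levels were in CARC or CARB. Those most like miR-351 were miR-340-5p (0.95), miR-872* (0.94), miR-742 (0.90), miR-483 (0.87) and miR-327 (0.86). For miR-503 they were miR-382* (0.90), miR-138* (0.88), miR-297a (0.87), miR-125b-3p (0.86) and miR-184 (0.84), each highest in A5. For miR-542-3p they were miR-125b-3p (0.90), miR-804 (0.88), miR-138* (0.85), miR-881* (0.83) and miR-713 (0.81), again each highest in A5, and without C5N, MSCP1 and A5 their r was 0.23 to 0.47. The 4 detected members thus had different nearest probes, apart from miR-138* and miR-125b-3p, which were near both miR-503 and miR-542-3p.

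The seed relatives of the members, made from other chromosomes, gave mixed differences between spindle and malignant squamous lines. Of the 5 probes with the miR-322 seed, miR-15a, miR-15b, miR-16, miR-195 and miR-497, 3 were higher and 2 lower in spindle lines, with a median difference of 0.07. miR-195 differed by 0.47 ± 0.38 (SE) and miR-16 by -0.95 ± 0.97. miR-16 was 6.99 in A5, against 8.80 to 10.83 in the other 4 spindle lines and 9.87 to 10.50 in the malignant squamous lines. A5 was thus low for miR-16 as well as for miR-322, while it was the highest line of miR-15a at 9.70. Between malignant and non-malignant squamous lines, limma called 0 of these 5 probes, and 0 of 5 had an unadjusted p under 0.05. The 2 probes with the miR-351 seed, miR-125a-5p and miR-125b-5p, differed by -0.49 ± 0.74 and 0.52 ± 1.02 between spindle and malignant squamous lines, where miR-351 itself differed by 0.27 ± 0.34. miR-125b-5p was highest in A5, at 14.18.

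Among 17 probes for miRNAs of other X-chromosome clusters, with 2 probes each for miR-20b and let-7f, 2 were higher and 15 lower in spindle than in malignant squamous lines. Their median difference was -0.13, and 119 of the 188 detected mouse probes were also lower in this comparison. Between malignant and non-malignant squamous lines, 16 of the 17 were higher and 1 lower, with a median of 0.33, and limma called 0 of 17. Of the 188 detected mouse probes, 155 were higher in this comparison, with a median of 0.40, against 0.03 over all mouse probes. Some of the 17 were above background in 0 lines. An unadjusted limma p under 0.05 was reached by 4 of the 17, miR-221, miR-222, miR-362-5p and miR-532-5p, each with a limma adjusted p of 0.844. Of these, miR-362-5p and miR-532-5p were above background in 0 of 13 lines. miR-221 and miR-222, which are known for repressing the cell-cycle inhibitor p27, differed by 1.89 ± 0.74 and 2.00 ± 0.75 (SE). Their lowest non-malignant lines were C5N, at 6.37, and MSCP1, at 7.53, and values without these lines are not given here.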

How the data were processed

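The authors' deposited table holds log2 values for 1271 probes on 14 arrays, with 0 missing values. Their range, 5.93 to 15.2, is what identifies the scale. How they were background-corrected, averaged over spots and normalized is not given in the sources used here, and their offset and centring are unknown. Column medians lay between 6.71 and 6.86, and no further scaling was applied. The 2 A5 arrays were averaged, and groups came from the phenotype in the labels. Differences came from lmFit and eBayes, with a trend on intensity, of limma 3.58.1 under R 4.3.3, on 13 lines and 576 mouse probes, with Benjamini-Hochberg adjustment, and the fit was tested on simulated data. The p-values measure the spread between lines. Pearson correlations were computed with numpy 2.4.6 and pandas 2.3.3 and Spearman correlations with scipy 1.17.1, over 13 lines except where lines are said to be left out. The members and lists were chosen with earlier results of these data known. All members are named, with the 5 detected mouse probes of highest Pearson r for each member above background in at least 3 lines. Alternatives covered quantile normalization, detected probes only, no trend, the tumour as a random block, each A5 array, leaving out lines, and other background thresholds. Sequences and positions were copied from RefSeq tables of GRCm38.p6, in which all 9 members matched. The number of arrays limits the precision.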

Additional observations from a re-analysis of the deposited data

Results flagged for a closer look

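Among 18 sets of 5 lines checked (9 members in the spindle and the non-malignant lines), 3 had a line whose gap to its nearest neighbour took more than 0.71 of the range of the set, which chance gives in about 1 of 20 sets. In spindle lines mmu-miR-322 was lowest in A5, at 6.79, against 7.56 in the next line, CARB (0.75 of the range). mmu-miR-542-3p was highest in A5, at 10.07, against 8.21 in CARC (0.73 of the range). mmu-miR-450b-3p was highest in CARB, at 7.82, against 6.72 in D3 (0.83 of the range).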

How the results depend on the processing

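limma called 0 of 576 probes in each of the 5 comparisons, and a few calls appeared under alternatives. Against non-malignant squamous lines, spindle lines gave 2 calls after quantile normalization, 6 among detected probes only, and 7 without C5N, MSCP1 and A5; leaving out 1 line at a time gave 0 to 1. Against malignant squamous lines they gave 1 call without those 3 lines and 0 to 1 with each line left out. Against all squamous lines they gave 2 after quantile normalization, 7 among detected probes, 8 without the 3 lines and 0 to 2 with each line left out. The papilloma comparison gave 0 to 1 with each line left out, the 1 call without C50. Members were not tested in the spindle comparisons. The comparison of malignant with non-malignant squamous lines gave 0 calls throughout. With the tumour as a random block (correlation 0.21) there were 0 calls in every comparison. The number of members above background in at least 3 lines was 4; it was 0 at a threshold of 2 log2 units, 5 at 0.5, and 3 at the 95th percentile of 89 viral probes, where miR-322 passed in 0 lines. For the 4 members above background in at least 3 lines, the sign of the difference changed in 6 of 80 alternative values between malignant and non-malignant squamous lines and in 12 of 80 between papilloma and immortalized lines. Levels within about 1 log2 unit of the negative controls limit what can be said of miR-322 and the miR-450 members.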
